A study of Mus musculus with 18 samples.

Results

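Foxp3+ CD4 T cells of the small-intestinal epithelium (IEL TR) were compared with CD4 T cells of the same site that carried neither CD8α nor Foxp3 (IEL SP), with 3 libraries in each group. These 6 libraries are part of a series of 18. Genes were kept where at least 3 of the 6 libraries had a normalised read count of at least 10, which left 13790 of the 38392 genes in the deposited table. Of these, 101 passed only through the 3 IEL TR libraries and 203 only through the 3 IEL SP libraries.

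Both groups came from 1 clonal source. Donor CD4 T cells were of the strain C57BL/6 TNa TNb RAG1-/- Foxp3GFP, in which T cells carry the receptor of a single peripherally induced regulatory T cell and a green fluorescent reporter marks Foxp3. They were transferred into C57BL/6 TCRa-/- TCRb-/- hosts and recovered by sorting after 6 weeks. IEL TR cells were sorted as CD4+Foxp3+, and IEL SP cells as CD4+ cells negative for CD8α and Foxp3. LP TR and LP SP cells, used below to set the sites side by side, are the same populations from the lamina propria under the epithelium. Such hosts lack αβ T cells of their own but keep gamma-delta T cells, B cells, innate lymphoid cells and myeloid cells. All cells bear 1 receptor on a RAG1-deficient background, which limits them as a model of a mixed repertoire, and the age of the mice is not given in the sources used here.

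Foxp3 is the transcription factor that defines regulatory T cells, which restrain other lymphocytes through surface receptors such as CTLA-4 and the high-affinity interleukin 2 receptor and through secreted mediators. In the gut many of these cells also carry tissue-repair and migratory genes. The epithelium holds few of them: CD4 T cells that settle there tend to take on features of CD8 T cells, with cytotoxic granules, chemokines of the CCL3 to CCL5 group and receptors shared with natural killer cells.

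The IEL TR libraries held 7108325, 8851347 and 6892918 reads and the IEL SP libraries 5651545, 5498871 and 7111123. IEL TR library 1 stood apart. Among the genes kept, 527, 127 and 144 had 0 reads in the 3 IEL TR libraries, against 43, 46 and 43 in the IEL SP libraries. Genes at 0 in a library with at least 10 in the other 5 numbered 168, 9 and 12 in IEL TR and 0, 1 and 2 in IEL SP. The 10 most abundant genes took 23.1%, 10.1% and 11.1% of IEL TR reads, and 11.7%, 12.5% and 15.4% of IEL SP reads. Across genes, log2 values of IEL TR library 1 correlated with the other 2 IEL TR libraries at r = 0.784 and 0.775, those 2 with each other at 0.866, and the IEL SP libraries among themselves at 0.940 to 0.945, with genes not being independent replicates. Values of all 3 IEL TR libraries are given below, and counts with and without library 1. IEL TR libraries 2 and 3 were also more variable than any IEL SP library. The share of genes that lay 4-fold or more below the other libraries of their group was 9.45%, 3.13% and 2.82% in IEL TR and 0.166%, 0.145% and 0.321% in IEL SP. RNA amount and cell number behind each library are not given in the sources used here, and their part in these losses was not tested.

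**Figure D1:**
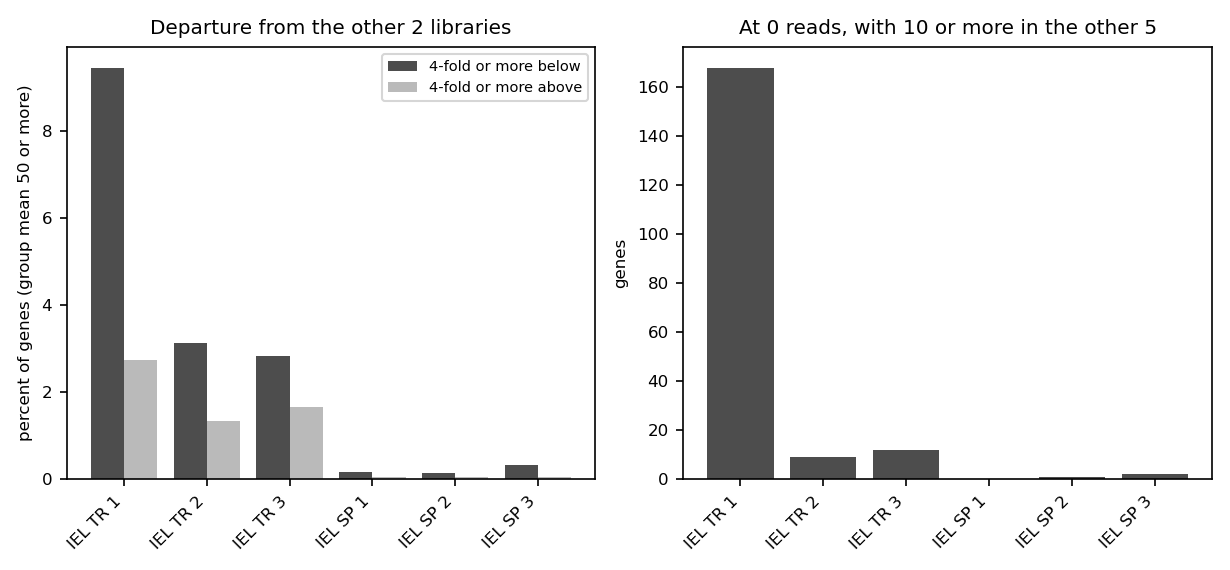
Left, percent of genes with a group mean of 50 or more (vertical axis) that lay 4-fold or more below (dark) or above (light) the mean of the other 2 libraries of their group, for each library of IEL TR and IEL SP. Right, number of genes at 0 reads in that library with a value of 10 or more in the other 5; IEL TR library 1 has 168, and no other library more than 12.

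Of the genes used in the sort, Foxp3 was higher in every IEL TR library than in any IEL SP library, and Cd8a was low in all but 1 library. Foxp3 (ENSMUSG00000039521, mm10, chrX:7573644-7595245) stood at 66.2, 164 and 125 normalised counts in IEL TR, against 7.01, 18.1 and 39.9 in IEL SP. The groups did not overlap, but the log2 difference of 2.60 ± 0.69 (standard error) did not pass in limma (adjusted p = 0.12). It also did not pass without IEL TR library 1 (limma adjusted p = 0.0758). DESeq2 on the recovered reads did call it, at an adjusted p of 0.0155. Cd8a, which encodes the chain that the IEL SP sort excluded, was at 3.15, 8.25 and 5.23 in IEL TR and at 113, 14.9 and 16.1 in IEL SP. IEL SP library 1 alone was high, and the difference did not pass (limma adjusted p = 0.254). Cd4 was at 543, 751 and 596 in IEL TR and 733, 733 and 769.5 in IEL SP, with overlapping groups, and Cd3e, a chain of the receptor complex, overlapped as well at 1104 to 1206 in IEL TR and 1159 to 1289 in IEL SP. Cd8b1, the partner chain of CD8α, was at 97.7, 162 and 179.5 in IEL TR and 49.1, 53.2 and 72.1 in IEL SP, without overlap, and did not pass (limma adjusted p = 0.125). It passed without IEL TR library 1 (0.0455), with DESeq2 and when limma was fitted on all 18 libraries.

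IEL TR cells differed from IEL SP cells in 448 of the 13790 genes (3.25%) by limma at an adjusted p under 0.05. Of these, 243 rose in IEL TR (1.76%) and 205 fell (1.49%). Of the gene lists described below, the regulatory core held rises and no falls, and the cytotoxicity and intraepithelial lists held falls and no rises. The changes called were large, with a median size of 2.78 on the log2 scale, while the median over all genes was -0.04. In bulk libraries, fewer cells with a transcript and less of it per cell cannot be told apart.

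All 448 called genes had groups that did not overlap. For 32 of the rises and 109 of the falls this follows from the filter, because they were kept through the 3 libraries of their higher group alone. Among the called genes named below, Nrp1, Dusp4, Ccr7, Cxcr5, H2-Ob, Cd81, Cd83 and Mmp9 were kept this way through IEL TR. Ccl3, Ccl4, Gzmk, Crtam, Klrd1, Tgfbr3, Qpct, Mras, Snai3, Cdh1, Tcrg-C4, Prim2, Erlin1, Tbc1d31 and Exog were kept this way through IEL SP. Counts of calls below include them. Over all genes kept, 13.6% had every IEL TR value above every IEL SP value and 11.4% had every IEL TR value below. Genes at an unadjusted p under 0.05 numbered 2342. Without IEL TR library 1, 715 genes were called (5.18%), 360 higher (2.61%) and 355 lower (2.57%). Leaving out IEL SP library 1, 2 or 3 left 58, 56 and 85 calls. A fit with 1 library left out is unbalanced, and its pooled spread leans on the group with 3 libraries. IEL TR libraries varied more than IEL SP libraries. Such p-values thus tend to be too small without an IEL TR library and too large without an IEL SP library. With libraries scaled to equal totals, 386 were called, of which 43.8% were higher in IEL TR, against 54.2% on the deposited scale. That scaling moved the median of all genes to -0.19. Fitting the same replicate numbers as a block left 72 calls. Values after ± are standard errors of a log2 difference, IEL TR minus IEL SP of log2(normalised count + 1), and adjusted p-values are Benjamini-Hochberg values from limma.

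**Figure D2:**
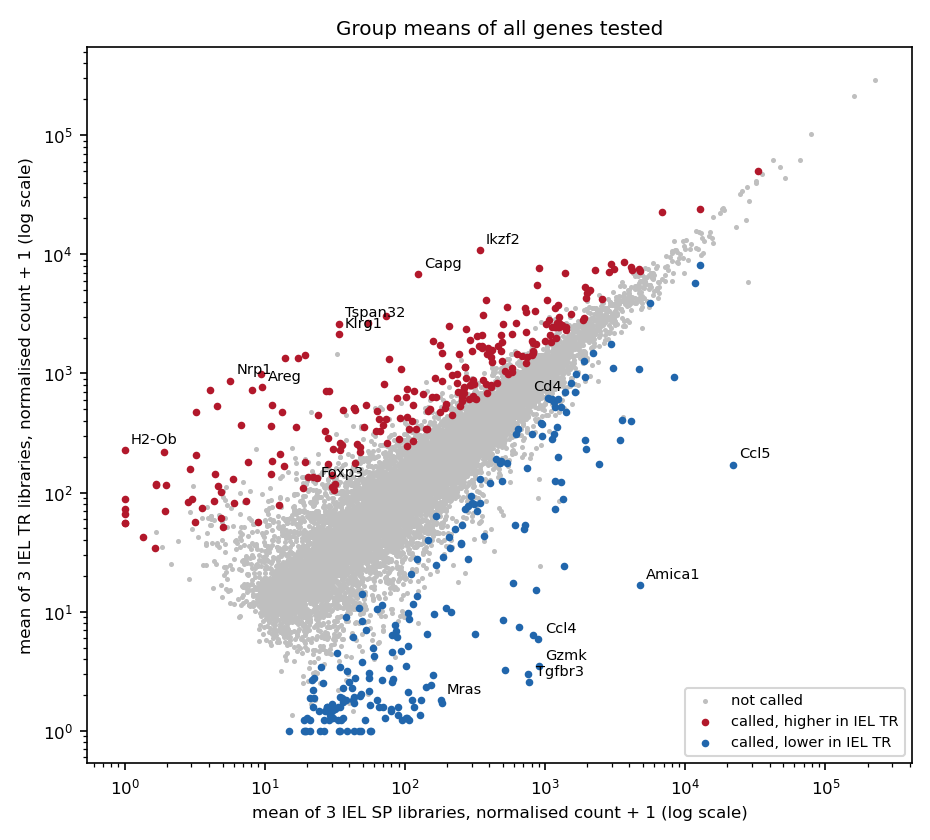
Each point is 1 of the 13790 genes kept, at the mean normalised count + 1 of 3 IEL SP libraries (horizontal, log scale) and of 3 IEL TR libraries (vertical, log scale). Red points are the 243 genes called higher in IEL TR and blue points the 205 called lower; Ikzf2 and Capg lie far above the diagonal, and Ccl5 and Amica1 far below it.

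Many regulatory receptors and transcription factors rose. Of 22 genes listed as a regulatory core, 19 were kept, and 12 rose and 0 fell, with a median log2 difference of 3.09. The same number rose without IEL TR library 1, and 8 without IEL SP library 1, 2 or 3. Ikzf2 (chr1:69531214-69687245), which encodes the transcription factor Helios, stood at 11303, 10855 and 10249.9 normalised counts in IEL TR, against 297, 447 and 274 in IEL SP. Every IEL TR library lay far above every IEL SP library, and the 3 IEL TR values were close to each other, library 1 included. The log2 difference was 5.02 ± 0.20 (limma adjusted p = 0.00107). Nrp1 (chr8:128358604-128503363), the surface co-receptor neuropilin 1, had 894, 608 and 1110.1 in IEL TR and 4.01, 3.19 and 6.79 in IEL SP. It was close to background in IEL SP and well expressed in each IEL TR library, with a log2 difference of 7.27 ± 0.39 (limma adjusted p = 0.00123). Capg, which caps actin filaments, had 8637, 6227 and 5523 in IEL TR and 132, 114 and 122 in IEL SP. Its groups were far apart (5.76 ± 0.20, limma adjusted p = 0.000903). Folr4, a folate receptor family member found on regulatory T cells, had 674, 1473 and 1922 in IEL TR and 10.01, 13.8 and 24.6 in IEL SP. IEL TR library 1 was the lowest of its group there and still far above IEL SP.

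The checkpoint and interleukin 2 receptors of regulatory cells moved the same way with smaller ratios, and IEL SP cells carried them too. Ctla4 stood at 4355, 4651 and 3482 in IEL TR and 252, 566 and 311 in IEL SP, without overlap (3.54 ± 0.32, limma adjusted p = 0.00625). Il2ra, the high-affinity interleukin 2 receptor chain, stood at 694, 548 and 643 in IEL TR and 130.2, 164 and 204 in IEL SP (1.93 ± 0.23, limma adjusted p = 0.0129). The Il2ra call was lost without IEL SP library 1 or 2, with an adjusted p of up to 0.0787. Ebi3, a subunit of interleukins 27 and 35, had 236, 835 and 566 in IEL TR and 17.0, 6.39 and 7.64 in IEL SP (limma adjusted p = 0.0106). Dusp4, a phosphatase of MAP kinases, and Ikzf4, a relative of Helios, also rose, by 5.28 ± 0.56 and 2.75 ± 0.38. Some listed genes did not pass. Tnfrsf9, the receptor 4-1BB, had 1421, 621 and 2338 in IEL TR and 44.1, 2.13 and 49.2 in IEL SP, where the spread of the low values left an adjusted p of 0.0553. Nt5e, the ecto-enzyme CD73, had 188, 849.7 and 1125 in IEL TR and 716, 709 and 820 in IEL SP, and IEL TR library 1 was the low value. Swap70 had 3.15, 0.69 and 97.6 in IEL TR against 202 to 234 in IEL SP, and did not pass (limma adjusted p = 0.181).

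Several costimulatory receptors rose beside them. Of 14 genes in the costimulatory list, all were kept, 7 rose and 2 fell, with a median of 1.38. Tnfrsf4, which encodes OX40, had 3364, 1752 and 2784 in IEL TR and 56.1, 69.2 and 33.9 in IEL SP. The groups were about 5.61 ± 0.36 apart on the log2 scale (limma adjusted p = 0.00267). Tnfrsf18, or GITR, had 2326, 3087 and 3911 in IEL TR and 344, 407 and 324 in IEL SP (3.09 ± 0.22). Icos had 4363, 6454 and 5777 in IEL TR, against 824, 928 and 870.5 in IEL SP (2.64 ± 0.16, limma adjusted p = 0.00259). Cd27 and Cd28 rose by 2.07 ± 0.24 and 1.38 ± 0.19. The 2 that fell were both TNF family ligands. Tnfsf14, or LIGHT, had 44.1, 2.75 and 2.61 in IEL TR and 561, 562 and 636 in IEL SP. IEL TR library 1 was the highest of its group, and the log2 difference was -6.11 ± 1.01 (limma adjusted p = 0.0368). Cd40lg, the helper ligand for CD40, had 107, 45.4 and 88.9 in IEL TR and 307, 343 and 369 in IEL SP (-2.15 ± 0.37). Without IEL SP library 1, 2 or 3, 3 of the 7 rises and 0 of the falls were called, 1 and 0 of the falls without IEL TR library 2 and 3, and equal totals left 4 rises.

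**Figure D3:**
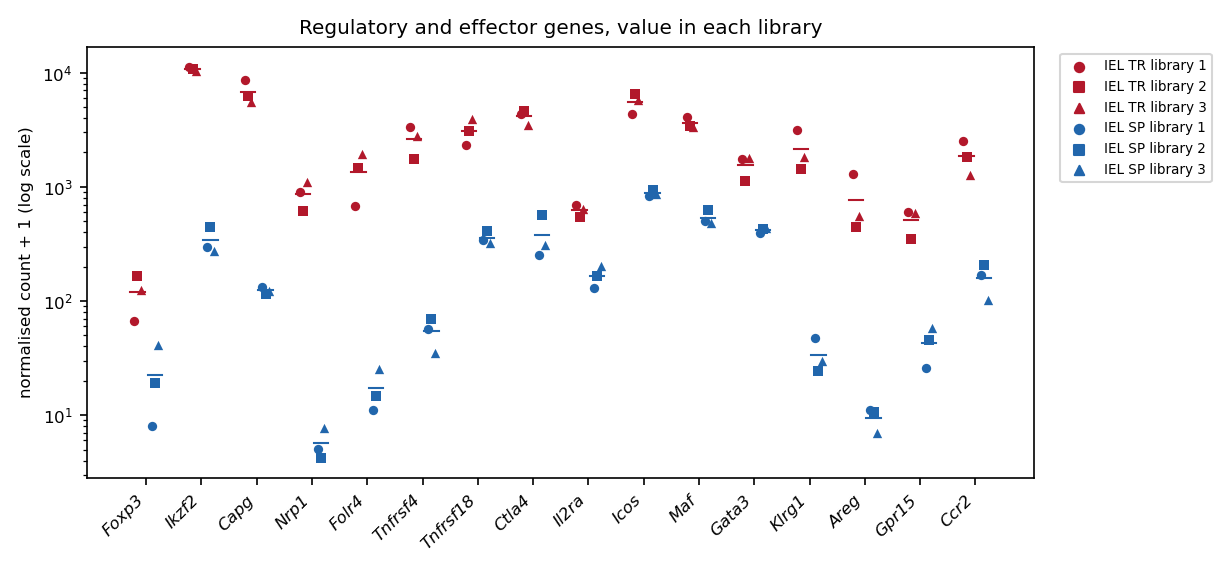
Normalised count + 1 (vertical, log scale) in each library for 16 regulatory and effector genes, IEL TR in red on the left and IEL SP in blue on the right of each gene, with library 1 as a circle, 2 as a square and 3 as a triangle, and bars at the group means. IEL TR lies above IEL SP without overlap in all 16 genes; Foxp3 is the only one of them that did not pass in limma.

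Genes of tissue regulatory cells rose in part. Of 22 listed, 20 were kept, 8 rose and 1 fell, with a median of 2.15. Areg (chr5:91139599-91148432), which encodes amphiregulin, a growth factor for epithelial repair, had 1296, 448 and 558 in IEL TR and 10.01, 9.58 and 5.94 in IEL SP. IEL TR library 1 was the highest, and the log2 difference was 6.21 ± 0.48 (limma adjusted p = 0.00423). Klrg1, an inhibitory receptor for cadherins, had 3176, 1432 and 1824 in IEL TR and 46.1, 23.4 and 28.9 in IEL SP (5.96 ± 0.39, limma adjusted p = 0.00269). Both genes were at low counts in IEL SP and abundant in every IEL TR library. The transcription factors Maf and Gata3 rose by 2.77 ± 0.15 and 1.87 ± 0.21. Maf had 4066, 3423 and 3350.4 in IEL TR and 497, 619.7 and 479 in IEL SP. Tigit, an inhibitory receptor for CD155, rose as well, with 619, 1112 and 1735 in IEL TR and 154, 254 and 193 in IEL SP (limma adjusted p = 0.0388). Il10 had 159.7, 456 and 74.9 in IEL TR and 7.01, 15.97 and 0 in IEL SP, and did not pass (limma adjusted p = 0.0893). Il1rl1, the interleukin 33 receptor, had 378, 503 and 370.3 in IEL TR and 113, 87.3 and 27.1 in IEL SP, and did not pass either (limma adjusted p = 0.0671). Rora, a nuclear receptor, was the listed gene that fell, by 0.59 ± 0.11 on the log2 scale, and its call was lost without any 1 of IEL TR libraries 2 and 3 or the IEL SP libraries, at adjusted p-values of up to 0.192. Of the 8 rises, 4, 4 and 6 were called without IEL SP library 1, 2 and 3.

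Migratory receptors moved in both directions. Of 20 chemokine and homing receptors, 17 were kept, 5 rose and 2 fell, with a median of 1.24. Ccr2, a receptor for monocyte chemoattractants, had 2524, 1821 and 1279 in IEL TR and 168, 204 and 101 in IEL SP (3.57 ± 0.36, limma adjusted p = 0.00869). Gpr15, a homing receptor for the large intestine, had 605, 349.9 and 591 in IEL TR and 25.0, 44.7 and 56.8 in IEL SP (3.61 ± 0.40, limma adjusted p = 0.0115). Neither gene's groups overlapped. Gpr183, Ccr7 and Cxcr5 rose too. Cxcr5, a receptor of follicles, had 386, 34.4 and 239.6 in IEL TR and 1.00, 0 and 1.70 in IEL SP, so that IEL TR library 2 was nearer to IEL SP than the other 2. Cxcr6 fell, with 273, 619 and 307 in IEL TR and 3919, 5103 and 3222 in IEL SP (-3.42 ± 0.35, limma adjusted p = 0.00908), and so did Gpr18, by 2.27 ± 0.29. Ccr9, which guides cells to the small intestine, overlapped, at 4447, 5673 and 2103 in IEL TR and 1702, 2201 and 2030 in IEL SP. The integrin chain Itgae, or CD103, which binds E-cadherin, overlapped likewise, at 3010 to 3959 in IEL TR and 3602 to 4698 in IEL SP. Itga1, the collagen-binding chain CD49a, fell to 1.05, 2.06 and 13.1 in IEL TR, against 695, 839 and 929.9 in IEL SP. The Itga1 difference was -7.52 ± 0.74 (limma adjusted p = 0.00823), up to 0.066 without an IEL SP library. Of the receptor calls, 0, 0 and 3 rises and 0 falls were left without IEL SP library 1, 2 and 3.

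Chemokines and some granule genes fell. Of 22 cytotoxicity genes, 19 were kept, 0 rose and 10 fell, with a median of -2.58. Without IEL TR library 1, 12 fell, and 3 without IEL SP library 1, 2 or 3. Ccl5 (chr11:83525778-83530518), a chemokine stored and released by cytotoxic lymphocytes, stood at 96.7, 202 and 213 in IEL TR and 22494, 20035 and 23359 in IEL SP. It was among the most abundant genes of IEL SP cells and far lower in every IEL TR library (-7.08 ± 0.31, limma adjusted p = 0.00107). Ccl4 had 4.20, 3.44 and 6.97 in IEL TR and 844, 762 and 1081 in IEL SP (-7.28 ± 0.35). Ccl3 had 0, 0.69 and 0 in IEL TR, which is 1 read in all, and 89.1, 41.5 and 153 in IEL SP. Xcl1, a chemokine for cross-presenting dendritic cells, had 5.25, 0.69 and 16.6 in IEL TR and 408, 239.6 and 863 in IEL SP. All 4 of these chemokine genes were called.

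Granzymes did not move alike. Gzmk had 3.15, 0 and 4.36 in IEL TR and 998, 953 and 761 in IEL SP (limma adjusted p = 0.00482). Gzma had 10501, 4981 and 1954 in IEL TR and 24444, 30761 and 28891 in IEL SP, and its difference of -2.58 ± 0.58 did not pass with all libraries (limma adjusted p = 0.08) but did without IEL TR library 1 (0.0149). Gzmb overlapped, at 6079, 9841 and 1689.6 in IEL TR and 5257, 6952 and 7024 in IEL SP. Granzymes A and B were thus among the abundant transcripts of IEL TR cells, and granzyme K was near 0. Nkg7, a granule membrane protein, had 1496, 835 and 445 in IEL TR and 7807, 8592 and 8647 in IEL SP (-3.34 ± 0.42, limma adjusted p = 0.017). Ctsw, a protease of cytotoxic cells, fell by 2.11 ± 0.19. Prf1, or perforin, had 307, 85.9 and 4.36 in IEL TR and 173, 359.9 and 411 in IEL SP, and overlapped. Ifng, the signature cytokine of type 1 cells, had 46.2, 81.1 and 31.4 in IEL TR and 629.9, 559 and 624 in IEL SP (-3.59 ± 0.37, limma adjusted p = 0.0094), with an adjusted p of up to 0.0746 without an IEL SP library. Il12rb2, a chain of the interleukin 12 receptor, fell with it by 2.82 ± 0.42.

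Some intraepithelial and natural killer type receptors fell as well. Of 22 such genes, 17 were kept, 0 rose and 7 fell, with a median of -2.01. Without IEL TR library 1, 8 fell and 1 rose, and 2 fell without IEL SP library 1, 2 or 3. Amica1 (chr9:45079183-45108534), a junctional adhesion molecule that binds a partner on epithelial cells, had 8.40, 28.2 and 10.5 in IEL TR and 4641, 4489 and 5124 in IEL SP. It had the most negative log2 difference among the genes chosen by size, -8.34 ± 0.44 (limma adjusted p = 0.00123). Crtam, an adhesion receptor of cytotoxic cells, was at 1.05, 0 and 0 in IEL TR, which is 1 read, and at 142, 104 and 135 in IEL SP (limma adjusted p = 0.00309). Cd244 had 6.30, 1.37 and 34.9 in IEL TR and 776, 928 and 879 in IEL SP, and Cd160 had 605, 141 and 86.3 in IEL TR and 3331, 3599.8 and 3333 in IEL SP. Both are receptors shared with natural killer cells, and both fell without overlap. Klrd1, or CD94, had 0, 0.69 and 0.87 in IEL TR and 19.0, 46.9 and 168 in IEL SP. Runx3, the transcription factor of CD8 lineage choice, had 496, 621 and 308 in IEL TR and 1477, 1247 and 1484 in IEL SP (-1.61 ± 0.27, limma adjusted p = 0.0389), which was lost without IEL SP library 1, 2 or 3 at up to 0.176. Its counterpart Zbtb7b, or ThPOK, had 89.3, 236 and 128 in IEL TR and 69.1, 49.0 and 83.1 in IEL SP. IEL TR lay above IEL SP, but the difference of 1.08 ± 0.44 did not pass (limma adjusted p = 0.295). Fasl had 15.8, 221 and 16.6 in IEL TR and 1159, 1208 and 1415 in IEL SP and missed the threshold at an adjusted p of 0.0641, with IEL TR library 2 the high value.

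**Figure D4:**
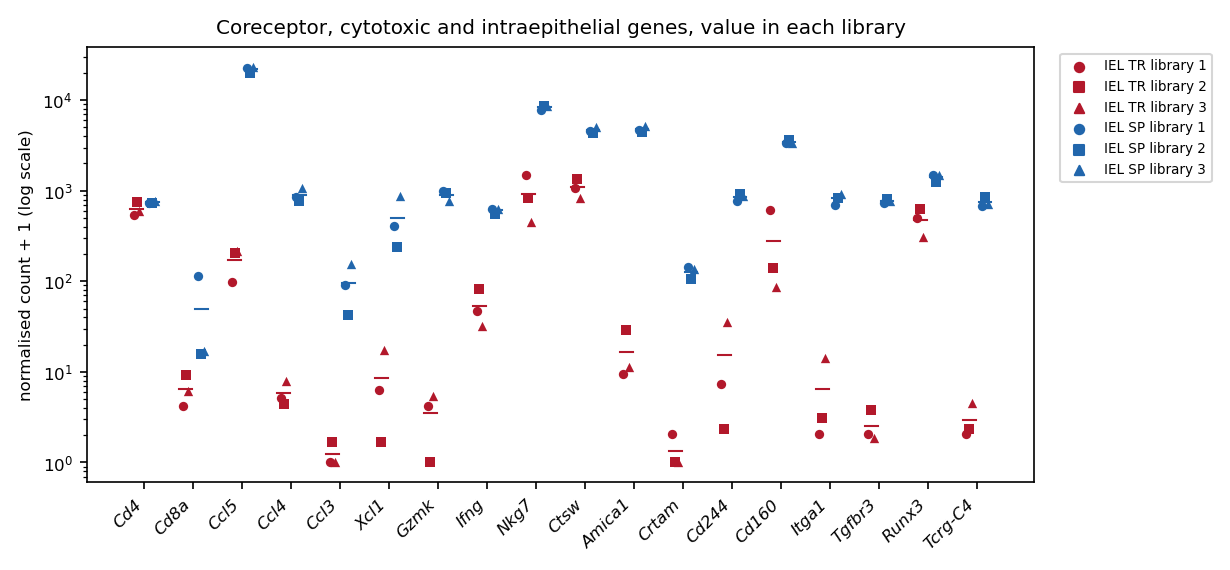
Normalised count + 1 (vertical, log scale) in each library for 18 coreceptor, cytotoxic and intraepithelial genes, IEL TR in red on the left and IEL SP in blue on the right of each gene, with library 1 as a circle, 2 as a square and 3 as a triangle, and bars at the group means. Ccl5 lies at 96.7 to 213 in IEL TR and 20035 to 23359 in IEL SP; the values of Cd4 overlap.

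A few of the genes with the largest differences lay outside these lists. Tspan32 (chr7:143005046-143019644), a tetraspanin of blood cells, had 3148, 2468 and 2218 in IEL TR and 28.0, 29.8 and 40.7 in IEL SP. Its groups were tight and far apart (6.27 ± 0.24, limma adjusted p = 0.000903). Neb, the muscle protein nebulin, had 1855, 988 and 1232 in IEL TR and 10.01, 11.7 and 17.0 in IEL SP. H2-Ob, a chain of the class II modulator H2-O, had 460.2, 104 and 114 in IEL TR and 0 in all 3 IEL SP libraries. That is at least 77.6-fold higher against a floor of 3 reads per library. Sdc4, Vill, Cd83, Cybb, Mmp9 and Cd81 were also among the 12 largest rises, each under 30 in every IEL SP library. All 6 calls, and that of H2-Ob, were lost without 1 or more of the IEL SP libraries, with an adjusted p of up to 0.136 for Cd81 and 0.0527 for H2-Ob. Cd81 and Cd83 were lowest in IEL TR library 2, at 91.4 and 186. Among the largest falls, Tgfbr3, the TGF-beta co-receptor betaglycan, had 1.05, 2.75 and 0.87 in IEL TR and 738, 808 and 764 in IEL SP (-8.31 ± 0.38, limma adjusted p = 0.00107). Qpct, which forms pyroglutamate at protein ends, had 3.15, 2.75 and 0.87 in IEL TR and 519.7, 564 and 459.8 in IEL SP. Mras, a small GTPase, and Snai3, a zinc finger factor, had 3 and 2 reads over the IEL TR libraries, with at least 109 normalised counts in each IEL SP library. The Snai3 call was lost without IEL SP library 1 or 2, at up to 0.0629.

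The regions before the start sites of the genes called and named here were searched for 3 short motifs. RefSeq gave a promoter for 47 of the 74 on GRCm38.p6, and the 250 bases before the start were read on both strands. The cyclic AMP response element TGACGTCA, which is its own reverse complement, was in Areg and Dusp1, a share to be read beside its 1.55% of 32851 promoters. The Runx motif TGTGGTT, reverse complement AACCACA, was in 5 (Runx3, Casp8, Gpr15, Tspan32 and Cybb) and in 4.4% of all promoters. The forkhead motif GTAAACA, reverse complement TGTTTAC, was in Ltb alone and in 3.17% of all. None of the motifs overlapped another in these windows, and a match is a description of letters. Areg and Tspan32, which carried 2 of the larger rises, and Dusp1, described below, are shown with the motif in capitals: Areg at chr5:91139349-91139598 on the plus strand, Dusp1 at chr17:26508473-26508722 on the minus strand and Tspan32 at chr7:143004796-143005045 on the plus strand.
Areg: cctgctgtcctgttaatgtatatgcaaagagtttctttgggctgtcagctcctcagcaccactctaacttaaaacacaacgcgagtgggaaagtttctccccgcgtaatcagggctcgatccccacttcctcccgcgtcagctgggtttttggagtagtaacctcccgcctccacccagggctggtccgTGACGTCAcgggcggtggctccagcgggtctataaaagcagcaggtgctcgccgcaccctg
Dusp1: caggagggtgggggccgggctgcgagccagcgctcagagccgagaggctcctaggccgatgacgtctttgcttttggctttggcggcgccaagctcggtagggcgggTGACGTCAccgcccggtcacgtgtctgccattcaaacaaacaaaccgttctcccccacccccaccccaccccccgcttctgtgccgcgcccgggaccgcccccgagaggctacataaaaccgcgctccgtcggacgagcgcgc
Tspan32: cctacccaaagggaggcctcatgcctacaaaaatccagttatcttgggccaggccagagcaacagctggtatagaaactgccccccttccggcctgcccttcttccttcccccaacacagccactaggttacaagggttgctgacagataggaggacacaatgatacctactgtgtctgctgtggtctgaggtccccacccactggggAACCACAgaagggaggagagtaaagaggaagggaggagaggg

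Interferon-response genes rose in part and none fell. All 23 listed genes were kept, and 6 rose, with a median of 1.11. Ifi27l2a, an interferon-induced gene, had 6115, 8052 and 8686 in IEL TR and 1202, 799 and 689.8 in IEL SP (3.11 ± 0.24, limma adjusted p = 0.00441). Usp18, Oas1a, Isg20 and Bst2 rose by 1.36 to 2.68 on the log2 scale. Ifit2, Mx1 and Ifi44 did not pass, and IEL TR library 1 was far below libraries 2 and 3 in each of them, for example at 2.10, 201 and 319 for Ifit2 with 94.1, 226 and 89.1 in IEL SP. Without IEL TR library 1, 9 rose, and 3 without IEL TR library 2, 4 without IEL TR library 3 and 2 to 3 without an IEL SP library.

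Genes of resting and recirculating T cells were split. Of 14 in the naive and memory list, 13 were kept, 5 rose and 1 fell, with a median of 0.86. Lef1, a partner of beta-catenin, had 416, 837 and 892 in IEL TR and 122, 115 and 107 in IEL SP (2.55 ± 0.33, limma adjusted p = 0.0187), while its relative Tcf7 had 143, 201 and 613 in IEL TR and 694, 511 and 612 in IEL SP and overlapped. Slamf6, Klf2 and Ltb rose by 4.66 ± 0.39, 2.57 ± 0.39 and 1.57 ± 0.17. Bcl2, the survival factor, fell to 230.1, 249.5 and 363 in IEL TR, against 1129.6, 887 and 1349 in IEL SP (limma adjusted p = 0.017). In the CD4 helper list, 12 of 13 were kept, 5 rose and 1 fell. They included the chromatin organiser Satb1, with 972, 995 and 785 in IEL TR and 265, 299 and 246 in IEL SP (1.76 ± 0.17). Leaving out IEL SP library 1, 2 or 3 left 1 rise and 0 falls in each of these lists, and Slamf6 passed under each (adjusted p of at most 0.0392).

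Genes of recent receptor signalling mostly did not pass. Of 20 listed, 18 were kept, 3 rose and 1 fell, with a median of 0.33. Dusp1 and Dusp5, phosphatases that switch off MAP kinases, and Nfkbia, the inhibitor of NF-kB, rose. The Dusp5 call was lost without IEL TR library 2 or 3 or any IEL SP library (adjusted p of up to 0.102), and that of Nfkbia without IEL SP library 1 (0.0538). Dusp1 had 2175, 1956 and 2273 in IEL TR and 481, 669.7 and 584 in IEL SP (1.89 ± 0.16, limma adjusted p = 0.00487). Nr4a2, an orphan receptor induced by antigen receptor signals, fell, with 26.3, 27.5 and 102 in IEL TR and 671, 615 and 874 in IEL SP (-4.05 ± 0.56, limma adjusted p = 0.0216), up to 0.124 without an IEL SP library. Its relative Nr4a1 had 449, 227 and 207 in IEL TR and 245, 138 and 149 in IEL SP and did not pass. Fos, Egr1 and Junb overlapped between the groups.

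In each of the other lists, 0 to 4 of the members passed in either direction. These counts are to be read beside the 1.76% of all genes that rose and the 1.49% that fell. Among 13 inhibitory receptors kept, 4 rose and 2 fell, and those not already described include Lilrb4, with 1004, 1852 and 1516 in IEL TR and 260.4, 257 and 207 in IEL SP. The Lilrb4 call was lost without any 1 IEL SP library (limma adjusted p of up to 0.0632). Proliferation genes had 0 rises and 1 fall of 19 kept, Rrm2, a subunit of ribonucleotide reductase, with 44.1, 59.8 and 41.8 in IEL TR and 277, 145 and 257 in IEL SP (limma adjusted p = 0.0344). The groups of Rrm2 did not overlap, but the call was lost without IEL TR library 3 or any IEL SP library, at up to 0.169, and 3 of the list fell without IEL TR library 1. Glycolysis had 2 rises of 15, Aldoa and Pgam1, and 0 with equal totals or without IEL SP library 1, 2 or 3. Cholesterol synthesis had 1 fall of 16, Lss, and 5 without IEL TR library 1. It had 0 without IEL SP library 1, 2 or 3, where the limma adjusted p of Lss was up to 0.15. The survival and death list had 1 rise, Casp8, and 1 fall, Bcl2, of 15. Neither was called without any 1 IEL SP library, at up to 0.167 for Casp8 and 0.0977 for Bcl2, and Casp8 was also lost without IEL TR library 2 or 3, with no filter, with equal totals and with quantile normalisation. Among 13 integrins kept, Itga4, Itga6 and Itgb3 rose and Itga1 fell, none of which was called without any 1 IEL SP library. Itga4, at an adjusted p of 0.0499, was also lost without IEL TR library 1 or 3, with a pseudocount of 0.5, both other filters, equal totals, quantile normalisation and edgeR, and Itgb3 without IEL TR library 3. Of 12 TGF-beta signalling genes kept, Skil, a repressor of the pathway, rose by 0.94 ± 0.12 and Tgfbr3 fell. The Skil call was lost without any 1 IEL SP library (limma adjusted p of up to 0.0887). Th1 had 1 rise and 2 falls of 13, described above, and Th17 had Rora alone of 5 kept, with Il17a and Il17f at or near 0 in all 6 libraries. Among 25 pan T cell and housekeeping genes, 2 rose, Cd2 and Trac, and the median was 0.03. The Trac call was lost without IEL TR library 2 or 3 or any 1 IEL SP library (limma adjusted p of up to 0.144). It was also lost with equal totals and with quantile normalisation.

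**Figure D5:**
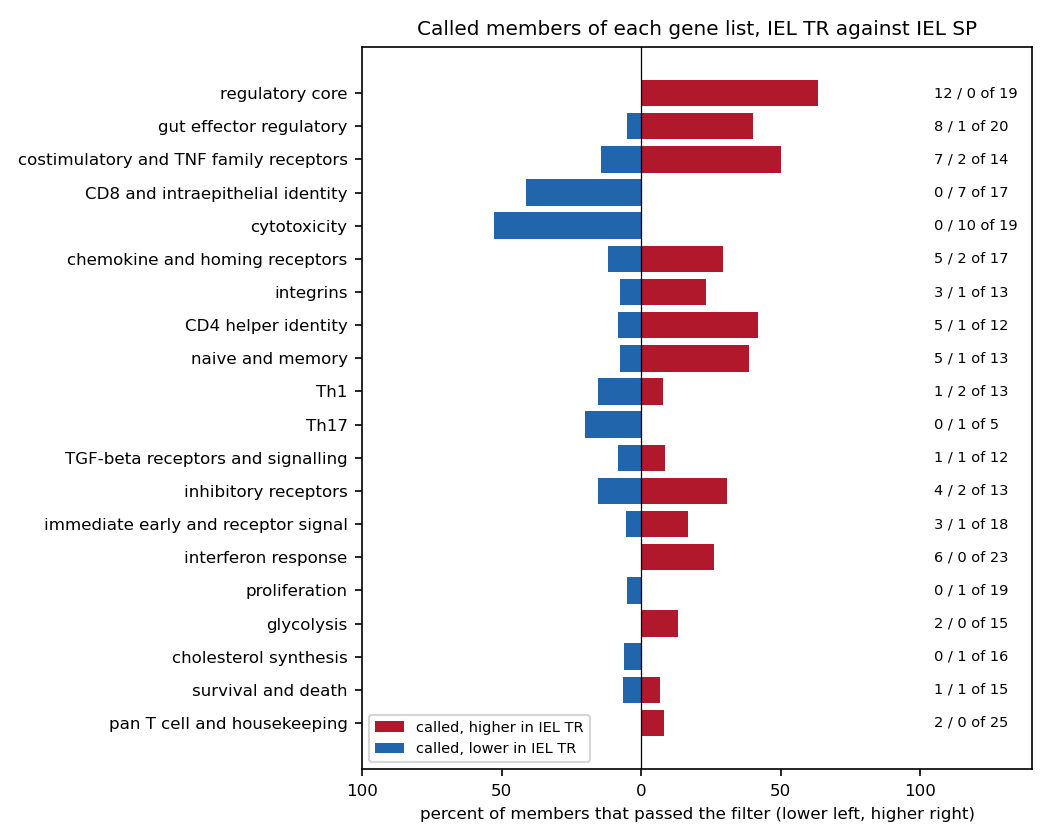
Percent of each list's members that passed the filter (horizontal axis) called higher in IEL TR (red, right) or lower (blue, left) at a limma adjusted p under 0.05; the numbers at the right give rises / falls of members kept. The regulatory core has 12 rises of 19 and the cytotoxicity list 10 falls of 19, beside 1.76% and 1.49% of all genes.

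Markers of other cell types were read beside these results. The summed level of 20 epithelial genes ran from 523 to 869 normalised counts in IEL TR and from 603 to 1830 in IEL SP, and 8 passed the filter. Epcam rose, with 305, 312 and 372 in IEL TR and 36.0, 44.7 and 104 in IEL SP, and Cdh1, or E-cadherin, fell to 9.46, 3.44 and 3.49 in IEL TR, against 317, 218 and 408 in IEL SP. The Epcam call was lost without IEL TR library 2 or 3 or IEL SP library 1 or 2 (adjusted p of up to 0.169), and that of Cdh1 without IEL SP library 1 (0.0521). The other 6 did not pass, Olfm4 and Defa24 were at 0 throughout, and Muc2 was at 0 in all but IEL SP library 1, at 6.01. B and plasma cell genes summed to 64.1 to 345.9 in IEL TR and 60.7 to 83.1 in IEL SP. Ms4a1, or CD20, was at 1.05, 2.06 and 124 in IEL TR and 0, 6.39 and 0 in IEL SP, and Cd79b at 0, 103 and 58.4 in IEL TR and 1.00, 1.06 and 19.5 in IEL SP. Igj and Mzb1 were at 0 in all 6. B cells also express H2-Ob and Cxcr5, and their part in those rises was not tested. Myeloid genes summed to 1002 to 1120 in IEL TR and 912 to 1094 in IEL SP, with Csf1r and S100a9 at 0 throughout. Stromal genes summed to 159 to 177 in IEL TR and 136 to 205 in IEL SP, with Dcn, Lum and Des at 0 throughout.

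The gamma-delta and innate lymphoid lists held 1 call each, both falls. The 5 gamma-delta genes in the table summed to 2.10, 28.2 and 18.3 in IEL TR and 700, 887 and 762 in IEL SP. In IEL SP nearly all of that was Tcrg-C4, a constant segment of the gamma chain, which had 1.05, 1.37 and 3.49 in IEL TR and 669.9, 859 and 716 in IEL SP (-8.06 ± 0.40, limma adjusted p = 0.00116). Tcrg-C1 and Tcrg-C2 were at 0 in IEL TR and at 6.01 to 24.6 in IEL SP, and Sox13 was at or near 0 in both. In IEL TR libraries 2 and 3 most of the sum was Blk, also a B cell gene, at 0, 26.8 and 14.8 in IEL TR and 0 in all IEL SP libraries. Innate lymphoid genes summed to 465 to 720 in IEL TR and 885 to 1572 in IEL SP, with Kit, Ncr1 and Il13 at 0 throughout. Cd7, on that list and also carried by T cells, fell to 93.5, 207 and 70.6 in IEL TR, against 1383, 1303 and 854 in IEL SP (limma adjusted p = 0.0189), while Il1rl1, the other listed gene that was kept, was higher in each IEL TR library than in any IEL SP library and did not pass. The part of such cells in the differences between IEL TR and IEL SP was not tested.

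Losses in IEL TR library 1 bore on single genes. The 8 most abundant genes at 0 in that library were Ccdc66, Tnf, Nt5m, Nod1, Mtmr1, Fam179b, Hs3st3b1 and Sh3bp5, and none of them was called. Tnf, the cytokine, was at 0, 111 and 70.6 in IEL TR and 346, 281 and 191 in IEL SP. IEL TR lay below IEL SP in every library, and the difference was -3.73 ± 1.79 with library 1 and -1.57 without it (limma adjusted p = 0.373 and 0.0689). Sh3bp5, which binds the kinase BTK, was at 0, 256 and 311 in IEL TR and 41.1, 58.6 and 61.1 in IEL SP. It was called higher without library 1 (2.40, limma adjusted p = 0.0159) and stood at -0.32 ± 2.23 with it. Ccdc66 was at 0, 129 and 298 in IEL TR and 286, 276 and 76.4 in IEL SP, and overlapped. Nod1, a sensor of bacterial peptides, was at 0, 54.3 and 6.10 in IEL TR and 231, 233 and 336 in IEL SP, with IEL TR below IEL SP in all libraries.

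The same contrast in the lamina propria, with 6 other libraries, gave 927 calls of 13886 (6.68%), and 223 genes were called in both sites, which is 49.8% of the 448 and 24.1% of the 927. Of the 448, 414 were kept for the test in the lamina propria. All 223 had the same direction, and 140 were higher in TR cells. Ikzf2 averaged 8943 in LP TR and 380.4 in LP SP, Klrg1 3448 in LP TR and 24.6 in LP SP, and Ccl5 177 in LP TR and 8178 in LP SP, so these genes were far apart in both sites. Foxp3 averaged 136 in LP TR and 4.47 in LP SP, and was called there (5.24, limma adjusted p = 0.00917). Its difference between sites was not called (interaction -2.65, limma adjusted p = 0.57). The interaction of site and cell type was called for 25 of 14960 genes (0.167%), 17 with a more positive (0.114%) and 8 with a more negative (0.0535%) log2 difference of TR minus SP in the epithelium.

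Icos had the pattern seen in several of the more positive genes. It averaged 5531 ± 1067 in IEL TR and 874 ± 52.2 in IEL SP (SD, n = 3 each), against 10611 ± 1899 in LP TR and 6981 ± 426 in LP SP (SD, n = 3 each), with an interaction of 2.05 ± 0.23 (limma adjusted p = 0.011). The low group was IEL SP. Pim1, a survival kinase, had the same order, with 668 ± 36.9 in IEL TR, 134 ± 10.5 in IEL SP, 1398 ± 73.4 in LP TR and 802 ± 52.0 in LP SP. Crem, a factor of cyclic AMP response elements, averaged 1889 ± 91.7 in IEL TR and 291 ± 33.2 in IEL SP, against 6342 ± 436 in LP TR and 3800 ± 927 in LP SP. Tspan32 differed in size rather than direction, at 6.27 in the epithelium and 3.50 in the lamina propria. Dusp1 and Dusp5, higher in IEL TR than in IEL SP, differed by -0.07 and 0.01 between LP TR and LP SP, and their interactions were 1.96 and 1.76 (limma adjusted p = 0.0432 for each), which did not pass in 9 and 12 of 23 other settings. Among the more negative genes, Prim2, a primase subunit, averaged 0.29 ± 0.50 in IEL TR, 71.5 ± 32.7 in IEL SP, 67.9 ± 37.7 in LP TR and 66.5 ± 24.1 in LP SP. Erlin1, Tbc1d31 and Exog likewise had their lowest group mean in IEL TR, at 0.58, 3.58 and 2.38. These levels stand beside the wider loss of transcripts in the IEL TR libraries, which was not tested as their source.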

How the data were processed

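RNA was sequenced from 18 libraries of sorted mouse T cells, of which 6 are compared here (IEL TR and IEL SP, 3 each). Per the labels' protocols, RNA was cleaned on SPRI beads and Nextera XT libraries were pooled. TopHat, HTSeq and mm10 are named in the submitters' processing notes, without versions. The deposited signal is a normalised read count: 100% of values above 0 were whole multiples of 1 factor per library, within 0.1 of a step, and how the authors set the factors is not stated. In IEL SP library 1 that factor, 1.00139, could not be told from 1 on low values alone. Dividing by the factors recovered reads, 5498871 to 8851347 per library of the 6, which set the precision of low values and cover counting error only.

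Values were taken to log2 after adding 1. Genes at 10 or more in 3 of the 6 libraries were fitted with limma 3.58.1 in R 4.3.3 (trend and robust), on these 6 libraries without a block, and called where the Benjamini-Hochberg adjusted value was below 0.05. A fold on this scale understates changes of low genes. The interaction used 12 libraries. edgeR 4.0.16 and DESeq2 1.42.0 on the recovered reads, other filters, pseudocounts and scalings, library weights, a replicate block, all 18 libraries and each library left out were alternatives. The smallest p that exact permutation of 3 against 3 libraries allows is 0.1, so none was run. The libraries are labelled as biological replicates, with no animal named for any of them. The p-values here reflect only how much libraries of a group vary, and the technical part of that spread was not tested. Same-numbered libraries were not taken as pairs: their residuals correlated at 0.0202, 0.0363 and 0.0108.

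In simulated data for IEL TR against IEL SP, 67, 65 and 68 of 13790 genes were changed 4-, 16- and 64-fold. Of these, 49.3%, 89.2% and 98.5% were recovered, with 15 of 173 calls false. For the interaction, 66, 77 and 57 of 14960 genes were changed. The shares recovered were 27.3%, 87.0% and 94.7%, with 39 of 178 calls false. The changed genes were drawn only from those above a minimum mean count. The shares thus do not cover genes of low counts, whose recovery was not tested. Recovery was also not split by expression level among the genes changed. Recovery of genes lost from a single IEL TR library was not tested separately.

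Named genes are the 12 largest changes in each direction (called, higher group mean of 50 or more, no overlap, leaving out predicted genes, small RNAs, pseudogenes and receptor segments), those called among the 4 smallest p-values of each of 26 lists, 11 lineage genes, the 8 most abundant genes at 0 in IEL TR library 1, and the 5 smallest interaction p-values per direction. Some genes that meet these rules are not reported here. Other list members named were chosen after their values were seen. Members and lists were chosen with earlier results of these data known. Coordinates are GENCODE M21 (GRCm38, the same as mm10), which held 36639 of the 38392 identifiers.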

Additional observations from a re-analysis of the deposited data

Results flagged for a closer look

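For 25 genes the difference between TR and SP cells was called as changed with the site. The test was of that difference itself (limma interaction, epithelium minus lamina propria, over 12 libraries). In simulated data with 66, 77 and 57 genes changed 4-, 16- and 64-fold, 39 of 178 such calls were false. A false share depends on how many genes truly change, which is not known here, so it cannot be carried over to the 25. The 17 genes given here are among those with the smallest p-values in each direction or are list members. The interaction was more positive in the epithelium for Tnfrsf4 (3.12), Tspan32 (2.77), Tnfsf11 (2.48), Icos (2.05), Gp49a (1.98), Dusp1 (1.96), Crem (1.94), Lilrb4 (1.84), Dusp5 (1.76), Cd28 (1.64), Pim1 (1.51) and Fos (1.42), all on the log2 scale. It was more negative for Exog (-7.77), Erlin1 (-6.29), Prim2 (-5.75), Tbc1d31 (-4.91) and Itgav (-2.57). Itgav was higher in TR than in SP cells at both sites, by 1.09 in the epithelium, which was not called, and 3.65 in the lamina propria. Fos and Tnfsf11 differed by -0.03 and 1.38 in the epithelium, neither called, and by -1.45 and -1.10 in the lamina propria.

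Gp49a, an immunoglobulin-like receptor close in sequence to Lilrb4, averaged 1691 ± 318 in IEL TR and 337 ± 12.8 in IEL SP, against 3348 ± 442 in LP TR and 2665 ± 156 in LP SP (SD, n = 3 each). Reads of the pair may be split by the counting, so their levels are uncertain. Exog, a mitochondrial nuclease, averaged 2.38 ± 3.26 in IEL TR and 75.8 ± 25.4 in IEL SP, against 43.8 ± 6.62 in LP TR and 8.48 ± 10.7 in LP SP (SD, n = 3 each), and its lamina propria difference of 2.85 did not pass (limma adjusted p = 0.0689). Its interaction did not pass in 11 of 23 other settings. Erlin1 and Tbc1d31 did not pass in 9 each, Prim2 in 4, Crem and Pim1 in 2 each and Tspan32 in 1, while Gp49a and Icos passed in all 23. Tnfrsf4 did not pass in 6 of them, Dusp1 in 9, Cd28 and Tnfsf11 in 11 each, Dusp5 in 12, Lilrb4 in 13, Itgav in 14 and Fos in 16.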

How the results depend on the processing

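Every one of the 74 named genes that were called kept its direction in the alternatives run. Their groups did not overlap, so other pseudocounts, other filters, library weights, a block or leaving out a library could not turn a direction. Among the 74, 24 also passed in all the alternatives. They include Ikzf2, Nrp1, Capg, Tnfrsf4, Ctla4, Icos, Maf, Klrg1, Areg, Tspan32, Ccl5, Ccl4, Amica1 and Tgfbr3. Of the 74, 1, 7 and 11 were lost without IEL TR library 1, 2 or 3, against 45, 44 and 33 without IEL SP library 1, 2 or 3. How far the unbalanced fits account for these losses was not tested. IEL SP libraries varied less (common dispersion 0.0699) than IEL TR (0.435, and 0.247 without library 1), so a pooled spread understates IEL TR error. Low counts limit genes near 0.

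Beside the 448 calls (243 higher, 205 lower), DESeq2 gave 1406 (848 and 558), all 18 libraries 1753 (950 and 803) and library weights 639, of which 308 were lower. Leaving out 1 library gave 56 to 715 calls, 40 to 360 higher and 15 to 355 lower. The 25 interaction calls became 13 with equal totals, 9 with quantile normalisation, 184 with DESeq2, 58 with all 18 libraries, and 3 to 79 with 1 library left out. Other pseudocounts, other filters and edgeR gave 400 to 519 calls in the first comparison. Uncalled Sh3bp5 changed sign, to 0.36 with a pseudocount of 5 and with quantile normalisation, 1.42 with library weights, 1.80 with edgeR and DESeq2, and, with 1 library left out, -1.74 to 2.40, the highest without IEL TR replicate 1. Ccdc66 ran from -4.01 to 0.10 and turned without the same library.

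The replicate block left 72 calls (48 higher, 24 lower), and 40 of the 74 named calls were lost. In residuals from the group means, each IEL TR library correlated most with the IEL SP library of its own number. These correlations were small, at 0.0202, 0.0363 and 0.0108, and are a hint from the data and not from the design. The interaction with the block gave 23 calls.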
